A study of Mus musculus with 6 samples.

Results

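The heat shock and chaperone genes of skeletal muscle were followed in the hindlimb gastrocnemius (GAS) muscles of mice without the potassium channel subunit Kvβ2. The genes were chosen by name, and these were *Hspa1a*, *Hspa1b*, *Hspa8*, *Hsp90aa1*, *Hsph1*, *Dnajb1*, *Bag3*, *Hspb1*, *Hspb7* and *Cryab*. All 10 were found among the 37979 entries of the expression table, and all 10 were among the 12334 genes that averaged 0.5 FPKM or more and were tested. FPKM count the sequenced fragments of a gene relative to its length in kilobases and to the total of the library. The KO mice were Kvβ2-/- and the WT mice carried the intact gene, both bred from Kvβ2+/- null parents, so Kvβ2 was missing from every tissue of the KO mice and not from muscle alone. All mice were male, 20 weeks of age and untreated, and the strain is not given in the sources used here. RNA was sequenced from 3 mice of each genotype, 1 library per mouse, and the libraries are numbered 1, 7 and 8 in each genotype. The comparison asks which genes differ between GAS muscles with and without Kvβ2.

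Heat shock proteins keep other proteins folded. HSP70 proteins bind unfolded stretches with the help of HSP40 co-chaperones and HSP110 exchange factors, HSP90 acts on kinases, receptors and myosin, and small heat shock proteins hold damaged proteins, in muscle often at the Z-disc, until they are refolded or removed. In chaperone-assisted selective autophagy, the co-chaperone BAG3 joins HSP70 and small heat shock proteins to the ubiquitin ligase CHIP, and damaged filamin is passed to the autophagosome under mechanical load. Heat shock factor 1 switches on many of these genes by binding repeats of the letters GAA and TTC.

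The promoters are shown here for the letters that heat shock factors are known to bind, and such letters also occur in many other promoters. Promoter windows from RefSeq on GRCm38.p6, from 250 bases before a transcription start to 50 bases after it, were given for 7 of the 10 genes, all but *Hspa8*, *Hsp90aa1* and *Cryab*. Each window was searched for 2 neighbouring units facing each other or apart, TTCNNGAA or GAANNTTC, and for 3 units in a row, TTCNNGAANNTTC or GAANNTTCNNGAA, where N is any base. The 2-unit letters read the same on both strands, the 3-unit letters were searched on both strands as these 2 forms, and a 3-unit match always holds 2-unit matches. Of all 32851 windows of this length, 15.06% held a 2-unit match and 0.6027% held a 3-unit match. The 250 bases before the start are printed below for the inducible HSP70 pair, for *Hsph1*, and for the small heat shock protein genes *Hspb1* and *Hspb7*, in lower case with the 2-unit matches in capitals, each on its own strand from 5′ to 3′.
*Hspa1a*, chr17:34972157-34972406, minus strand: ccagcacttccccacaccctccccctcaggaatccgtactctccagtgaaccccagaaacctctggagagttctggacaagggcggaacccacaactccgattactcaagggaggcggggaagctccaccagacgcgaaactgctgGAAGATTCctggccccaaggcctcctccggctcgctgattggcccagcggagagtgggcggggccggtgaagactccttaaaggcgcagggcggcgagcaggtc
*Hspa1b*, chr17:34959239-34959488, minus strand: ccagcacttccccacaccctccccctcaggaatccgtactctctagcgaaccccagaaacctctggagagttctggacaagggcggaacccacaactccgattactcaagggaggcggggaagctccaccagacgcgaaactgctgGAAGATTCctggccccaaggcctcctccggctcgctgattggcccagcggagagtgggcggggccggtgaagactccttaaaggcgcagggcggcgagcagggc
*Hsph1*, chr5:149636316-149636565, minus strand: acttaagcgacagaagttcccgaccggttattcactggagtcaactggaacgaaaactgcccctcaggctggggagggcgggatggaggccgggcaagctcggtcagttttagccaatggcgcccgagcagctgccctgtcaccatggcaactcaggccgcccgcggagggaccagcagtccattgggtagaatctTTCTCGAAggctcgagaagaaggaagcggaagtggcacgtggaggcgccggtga
*Hspb1*, chr5:135887669-135887918, plus strand: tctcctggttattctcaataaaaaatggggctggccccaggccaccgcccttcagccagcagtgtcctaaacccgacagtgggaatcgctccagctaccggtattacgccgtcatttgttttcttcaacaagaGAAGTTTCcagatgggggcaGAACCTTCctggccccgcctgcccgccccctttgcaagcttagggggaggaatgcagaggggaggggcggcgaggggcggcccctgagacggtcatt
*Hspb7*, chr4:141420529-141420778, plus strand: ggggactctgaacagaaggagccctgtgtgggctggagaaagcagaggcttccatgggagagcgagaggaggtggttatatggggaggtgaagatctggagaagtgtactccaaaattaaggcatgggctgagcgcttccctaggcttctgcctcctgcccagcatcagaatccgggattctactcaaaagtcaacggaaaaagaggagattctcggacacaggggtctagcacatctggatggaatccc
*Hspa1a* and *Hspa1b* shared 1 match at the same place, position -104 counted to the transcription start, and their printed stretches differed at 3 of 250 bases. *Hspb1* held 2 matches, at positions -117 and -97. *Hsph1* held a match at position -54 and, past the start and outside the printed stretch, the 1 match of 3 units among these genes, TTCTGGAAAGTTC. The last 2-unit match within it, GAAAGTTC, began 20 bases past the start. Counted to another annotated start of *Hsph1*, its first and last 2-unit matches were at -33 and 41. *Bag3* held 1 match, GAAGTTTC, 42 bases past its start. The windows of *Dnajb1* and *Hspb7* held none of these letters, which says nothing of sites elsewhere. In all, 5 of the 7 genes held a 2-unit match and 1 held a 3-unit match in at least 1 window. Of all genes with a window, 16.97% and 0.6623% did.

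By the steps of the low FPKM values, the WT libraries held an estimated 20420000 to 21580000 fragments and the KO libraries 14760000 to 19270000, so that 1 fragment on 1 kilobase of transcript was worth 0.04634 to 0.06776 FPKM. The targeted gene *Kcnab2* (ENSMUSG00000028931) was at 0.233, 0.10 and 0.110 FPKM in WT libraries 1, 7 and 8, at 0.0151 FPKM in KO library 7 and listed at 0 in KO libraries 1 and 8 (p = 0.1 in a two-sided exact permutation test, the lowest p possible with 3 against 3). The tissue carried its muscle markers, with 10 fast fiber genes summing to 41240 to 58770 FPKM, although *Myh4*, *Tnnt3* and *Atp2a1*, which this muscle is known to express, are listed at 0. In all, 40 of the 12334 tested genes passed an adjusted p under 0.05 with limma.

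None of the 10 genes passed that threshold, where 0.324% of all tested genes did. At an unadjusted p under 0.05 with limma, 3 of the 10 were higher in the KO muscle (*Hspb1*, *Hspb7* and *Cryab*), where 15.3% of all tested genes were, and 0 of the 10 were lower, where 10.9% were. The 3 WT and 3 KO libraries did not overlap for 1 of the 10 genes, *Hspb1*, with KO above WT (18.3% of all tested genes), and for 0 of the 10 with KO below WT (16.2%). The fitted difference was above 0 for 7 genes and below 0 for 3. The median log2 fold change of the 10 genes, KO minus WT on the log2(FPKM + 0.1) scale, was 0.35, against 0.010 for all tested genes. On this scale the differences of weakly expressed genes come out too small. In whole muscle, fewer cells of a type and less RNA per cell cannot be told apart.

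**Figure D1:**
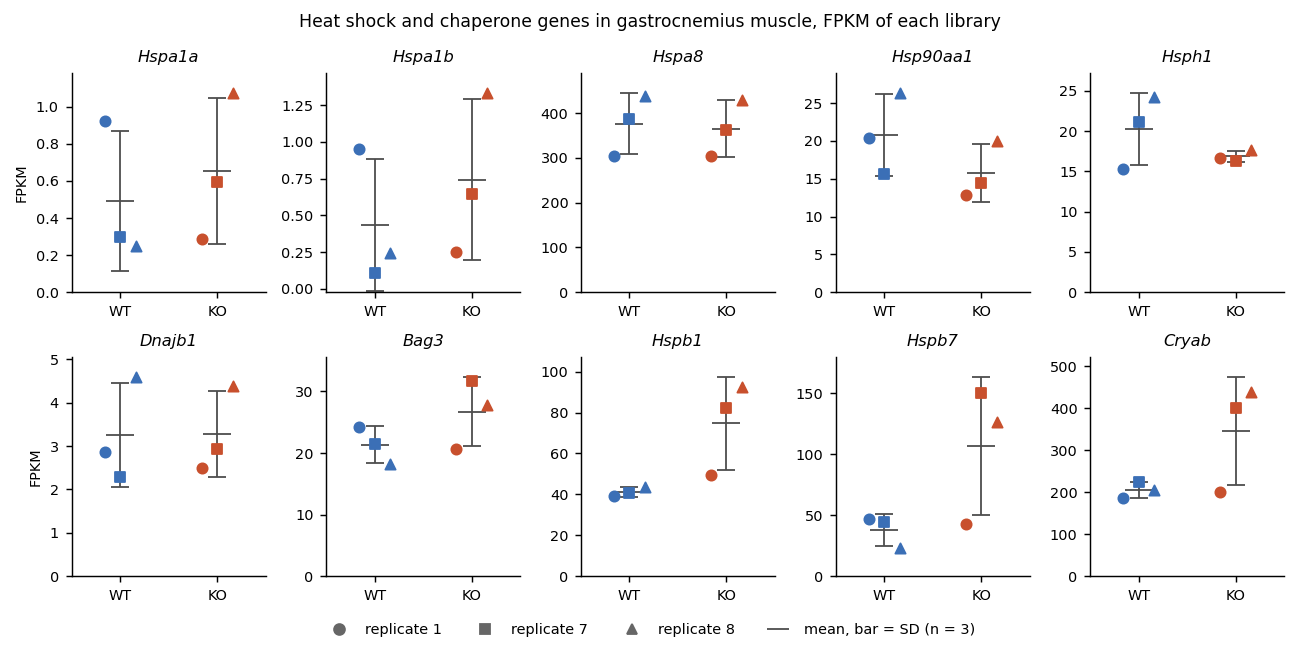
FPKM of the 10 genes in each of the 6 libraries, with WT in blue and KO in orange, the marker shape giving the replicate number, and the mean and SD of 3 libraries drawn as bars. The *Hspb1* values of the KO libraries (49.3 to 92.65 FPKM) all lie above those of the WT libraries (39.0 to 43.7 FPKM), and KO replicate 1 lies near the WT values for *Hspb7* and *Cryab*.

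The 3 genes at an unadjusted p under 0.05 were small heat shock proteins. *Hspb1* (ENSMUSG00000004951, GRCm38 chromosome 5, 135887919 to 135889563, plus strand) encodes HSP27, which binds unfolded proteins and actin filaments. It was at 39.0, 40.5 and 43.7 FPKM in WT libraries 1, 7 and 8 and at 49.3, 82.05 and 92.65 FPKM in KO libraries 1, 7 and 8. Every KO library lay above every WT library, and KO replicate 1 lay nearest to WT. The means were 41.1 ± 2.37 FPKM in WT and 74.7 ± 22.6 FPKM in KO muscle (SD, n = 3 each), and the log2 fold change was 0.81 (standard error 0.22, unadjusted p = 0.00777, adjusted p = 0.0962, limma).

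*Hspb7* (ENSMUSG00000006221, chromosome 4, 141420779 to 141425311, plus strand), a heart and muscle member that binds filamin C, was at 47.3, 44.1 and 23.1 FPKM in WT libraries 1, 7 and 8 and at 42.7, 150.5 and 126.2 FPKM in KO libraries 1, 7 and 8. KO replicates 7 and 8 were above every WT library, while KO replicate 1 was below WT replicates 1 and 7, so the groups overlapped. *Hspb7* had the highest fold change of the 10 genes, 1.35 on the log2 scale (standard error 0.49, adjusted p = 0.147), from 38.2 ± 13.1 to 106.5 ± 56.6 FPKM (SD, n = 3 each).

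*Cryab* (ENSMUSG00000032060, chromosome 9, 50751325 to 50756636, plus strand) encodes αB-crystallin, which protects desmin and titin. It was at 186.4, 224.6 and 205.7 FPKM in WT libraries 1, 7 and 8 and at 199.8, 400.4 and 437.3 FPKM in KO libraries 1, 7 and 8. As for *Hspb7*, KO replicates 7 and 8 were high and KO replicate 1 lay within the WT range, but the WT libraries stood in another order. The log2 fold change was 0.67 (standard error 0.28, adjusted p = 0.185). Its start overlaps that of *Hspb2* on the other strand (chromosome 9, 50751078 to 50752354), and the sources used here do not say whether the quantification used strand.

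In all 3 genes KO replicates 7 and 8 were the highest libraries. Without KO replicate 1, the log2 fold changes were 1.09 for *Hspb1* (adjusted p = 0.0649), 1.92 for *Hspb7* (adjusted p = 0.101) and 1.03 for *Cryab* (adjusted p = 0.0960), and with each of the 6 libraries left out in turn they ranged from 0.63 to 1.09, from 1.01 to 1.92 and from 0.46 to 1.03. KO replicate 1 was the lowest KO library for 9 of the 10 genes, *Hsph1* being the exception. limma's array weights, which give less weight to libraries that lie far from their group, called 4 of the 10 genes, *Hspb1*, *Hspb7*, *Cryab* and *Hspa1b*, but this fit called 25.5% of all tested genes.

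*Bag3* (ENSMUSG00000030847, chromosome 7, 128523616 to 128546981, plus strand), the scaffold of chaperone-assisted autophagy, was at 24.2, 21.5 and 18.3 FPKM in WT libraries 1, 7 and 8 and at 20.7, 31.7 and 27.75 FPKM in KO libraries 1, 7 and 8. KO replicates 7 and 8 were the highest libraries, and KO replicate 1 was below WT replicates 1 and 7. The log2 fold change was 0.31 (standard error 0.18, adjusted p = 0.312). *Bag1*, whose product is known to direct HSP70 clients to the proteasome, was at 128.8, 115.1 and 114.6 FPKM in WT and 102.9, 103.5 and 120.0 FPKM in KO libraries 1, 7 and 8, and its log2 fold change was -0.14 (standard error 0.11, adjusted p = 0.455). The ratio of *Bag3* to *Bag1* was 0.188, 0.187 and 0.1596 in WT and 0.201, 0.307 and 0.231 in KO libraries 1, 7 and 8. Every KO ratio was above every WT ratio, with a difference of the mean log2 ratios of 0.45 (two-sided exact permutation p = 0.1). After a correction for the GC content of the transcripts, described below, the log2 fold change was -0.090 for *Bag3* and -0.42 for *Bag1* (unadjusted p = 0.014, limma), and the ratio itself was not corrected.

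The stress-inducible HSP70 genes *Hspa1a* (ENSMUSG00000091971, chromosome 17, 34969190 to 34972156, minus strand) and *Hspa1b* (ENSMUSG00000090877, chromosome 17, 34956436 to 34959238, minus strand) encode nearly the same protein, and both were low in this muscle. *Hspa1a* was at 0.924, 0.298 and 0.251 FPKM in WT libraries 1, 7 and 8 and at 0.290, 0.5955 and 1.07 FPKM in KO libraries 1, 7 and 8. *Hspa1b* was at 0.949, 0.110 and 0.245 FPKM in WT and at 0.2525, 0.643 and 1.335 FPKM in KO libraries 1, 7 and 8. For both, KO replicate 8 was highest and WT replicate 1 second, so the genotypes overlapped over nearly their whole range. The values stand for an estimated 12 to 54 fragments per library for *Hspa1a* and 6 to 57 for *Hspa1b*. Of the stretches of 150 bases, the length of a read, in the *Hspa1b* transcript, 40.47% also occur in *Hspa1a*, so how the quantification divided fragments between them is uncertain.

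The log2 fold change was 0.38 for *Hspa1a* (standard error 0.58, adjusted p = 0.699) and 0.77 for *Hspa1b* (standard error 0.74, adjusted p = 0.528). For their summed FPKM, which depends less on how fragments were divided between the pair, whose transcripts are 2967 and 2803 bases long, it was 0.62 (standard error 0.65, adjusted p = 0.567). Single libraries set these values. The log2 fold change of *Hspa1b* was 0.27 without KO replicate 8 and 1.42 without WT replicate 1. *Hspa1a* went from -0.0072 to 0.87 in the same 2 fits.

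*Hspa8* (ENSMUSG00000015656, chromosome 9, 40800984 to 40810087, plus strand), the constitutive HSP70 that takes part in both refolding and autophagy, was the most abundant of the 10 by FPKM and ranked 129 among all tested genes. It was at 303.5, 386.9 and 438.8 FPKM in WT and at 303.7, 362.6 and 430.0 FPKM in KO libraries 1, 7 and 8. The genotypes spanned the same range, and the log2 fold change was -0.040 (standard error 0.18, adjusted p = 0.907).

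*Hsp90aa1* (ENSMUSG00000021270, chromosome 12, 110690605 to 110702728, minus strand), the inducible cytosolic HSP90, which folds myosin with its partners, was at 20.4, 15.6 and 26.3 FPKM in WT and at 12.8, 14.5 and 20.04 FPKM in KO libraries 1, 7 and 8. KO replicates 1 and 7 were the lowest libraries, and KO replicate 8 lay within the WT range (log2 fold change -0.39, standard error 0.23, adjusted p = 0.318). *Hsph1* (ENSMUSG00000029657, chromosome 5, 149614287 to 149636376, minus strand), the HSP110 exchange factor, was at 15.4, 21.15 and 24.2 FPKM in WT and at 16.7, 16.3 and 17.6 FPKM in KO libraries 1, 7 and 8. Only WT replicates 7 and 8 stood above the rest, and the log2 fold change was -0.24 (standard error 0.17, adjusted p = 0.407).

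*Dnajb1* (ENSMUSG00000005483, chromosome 8, 83608193 to 83612653, plus strand), the inducible HSP40 that hands clients to HSP70, was at 2.87, 2.295 and 4.59 FPKM in WT and at 2.505, 2.92 and 4.40 FPKM in KO libraries 1, 7 and 8. Replicate 8 was the highest in both genotypes, and the log2 fold change was 0.028 (standard error 0.29, adjusted p = 0.961). Of these genes, *Hspa8*, *Hsp90aa1*, *Hsph1* and *Dnajb1* peaked in replicate 8 of both genotypes, as did *Hspb1*. Stretches of 150 bases shared with other genes made up 22.4% of *Hspa8*, 36.17% of *Hsp90aa1*, 10.64% of *Cryab* (with *Hspb2*) and 36.62% of *Hspb1*, in the last case with the pseudogene *Hsp25-ps1*. This makes their levels uncertain, by an amount that was not measured. *Hsph1*, *Dnajb1*, *Bag3* and *Hspb7* shared 0 such stretches.

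The small heat shock proteins and *Bag3* were set beside the markers of slow fibers, which differed widely between libraries. The 9 slow fiber markers summed to 1015, 709.2 and 51.4 FPKM in WT libraries 1, 7 and 8 and to 373.3, 1173 and 2018 FPKM in KO libraries 1, 7 and 8. The slow myosin gene *Myh7* was at 24.3, 22.1 and 0.0514 FPKM in WT and at 15.2, 50.5 and 77.4 FPKM in KO libraries 1, 7 and 8. *Hspb7* and *Bag3* took the same order of libraries as the slow sum, except at the top. There KO replicates 7 and 8 stood the other way round. *Hspb1* and *Cryab* shared its top libraries, KO replicates 8 and 7. Both were lowest in WT replicate 1, which had the highest slow sum of the WT libraries. All 9 markers had a log2 fold change above 0, with 0 at an unadjusted p under 0.05 and a median of 1.63. With the log2 slow sum as a covariate, chosen after seeing the data, the log2 fold changes were 0.83 for *Hspb7* (adjusted p = 0.206), 0.725 for *Hspb1* (adjusted p = 0.159), 0.52 for *Cryab* (adjusted p = 0.329) and 0.14 for *Bag3* (adjusted p = 0.612). Of the 10 genes, 2 were at an unadjusted p under 0.05 in that fit, where 24.2% of all tested genes were.

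The inducible HSP70 pair was set beside genes of tissue handling. The 13 immediate early and handling genes, among them *Fos*, *Jun* and *Atf3*, which respond rapidly to stimulation or tissue handling, summed to 123.1, 48.2 and 45.85 FPKM in WT libraries 1, 7 and 8 and to 98.2, 83.55 and 213.3 FPKM in KO libraries 1, 7 and 8. KO replicate 8 and WT replicate 1 were the top libraries for this sum and for *Hspa1a* and *Hspa1b* alike. KO replicate 1 came next for the sum and was low for the pair. *Dnajb1*, *Hspa8*, *Hsp90aa1* and *Hsph1* were instead highest in WT replicate 8, the library with the lowest sum. All 11 of the immediate early and handling genes that were tested had a log2 fold change above 0. Of these, 3 were at an unadjusted p under 0.05, where 15.3% of all tested genes were higher at that p. The part of fiber content and of handling in these differences was not tested.

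**Figure D2:**
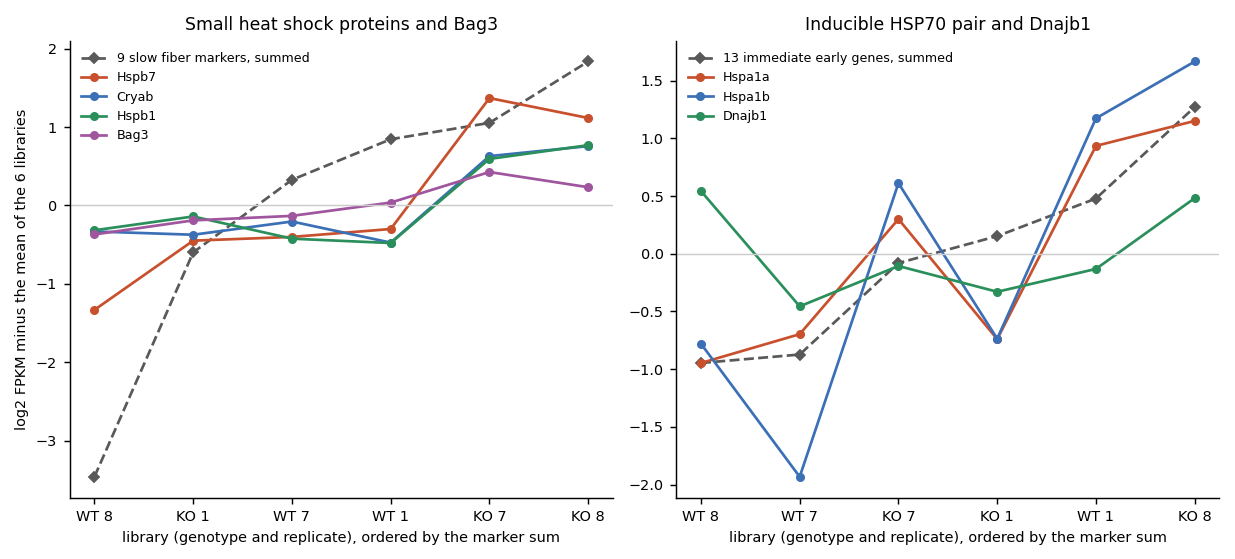
Level of each gene or marker sum in the 6 libraries as log2 FPKM minus its mean over the libraries, with libraries ordered from the lowest to the highest marker sum. Left, *Hspb7*, *Cryab*, *Hspb1* and *Bag3* are highest in KO replicates 7 and 8, the libraries with the highest slow fiber sums (1173 and 2018 FPKM). *Hspb1* and *Cryab* are lowest in WT replicate 1, whose slow fiber sum is the highest of the WT libraries (1015 FPKM). Right, *Hspa1a* and *Hspa1b* are highest in KO replicate 8 and WT replicate 1, as is the immediate early sum (213.3 and 123.1 FPKM). *Dnajb1* is highest in WT replicate 8, where that sum is lowest (45.85 FPKM).

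Markers of other cell types also varied. The erythrocyte sum, of 3 genes found, was 64.9 to 98.2 FPKM in WT and 112.5 to 228.4 FPKM in KO libraries, without overlap. The adipocyte sum, most of it *Fabp4*, was 233.1 to 440.1 FPKM in WT and 298.1 to 593.5 FPKM in KO libraries. All 5 adipocyte markers had a log2 fold change above 0, with a median of 1.65. Of these, 3 were at an unadjusted p under 0.05, where 15.3% of all tested genes were higher at that p. *Plin1* (0.138 to 0.4995 FPKM in WT, 1.14 to 7.37 FPKM in KO) and *Cfd* (3.92 to 17.8 FPKM in WT, 24.6 to 89.0 FPKM in KO) did not overlap between genotypes. For 18.3% of all tested genes every KO library likewise lay above every WT library. Each of the 5 markers was highest in KO replicate 7, the library in which *Hspb7* and *Bag3* were also highest. The sums of WT and KO libraries overlapped for the endothelial (44.4 to 57.2 FPKM over all libraries), fibroblast and tendon (362.7 to 546.3 FPKM), macrophage (2.795 to 12.7 FPKM, 4 of 5 genes found) and Schwann cell markers (12.9 to 85.6 FPKM). KO replicate 7 was also the highest library for the endothelial, macrophage and Schwann cell sums, but not for the erythrocyte or the fibroblast and tendon sums. The part of these cells in the heat shock gene values was not tested.

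The differences also moved with the GC content of the transcripts, which ranged from 44.86% for *Hsp90aa1* to 61.21% for *Hspb1*. The 3 genes of lowest GC content (*Hsp90aa1*, *Hsph1* and *Hspa8*) were those with a log2 fold change below 0. After each library's trend on GC content was removed, the log2 fold change was 0.14 for *Hspb1* (standard error 0.20, adjusted p = 0.829), 0.87 for *Hspb7* (standard error 0.49, adjusted p = 0.571) and 0.45 for *Cryab* (standard error 0.27, adjusted p = 0.581). *Bag3* went to -0.090 and *Hspa1a* to -0.19, so that 6 of the 10 genes were then below 0, with a median of -0.053 against -0.0036 for all genes. At an unadjusted p under 0.05 there were then 0 of the 10 genes, where 10.7% of all genes with a GC value were.

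**Figure D3:**
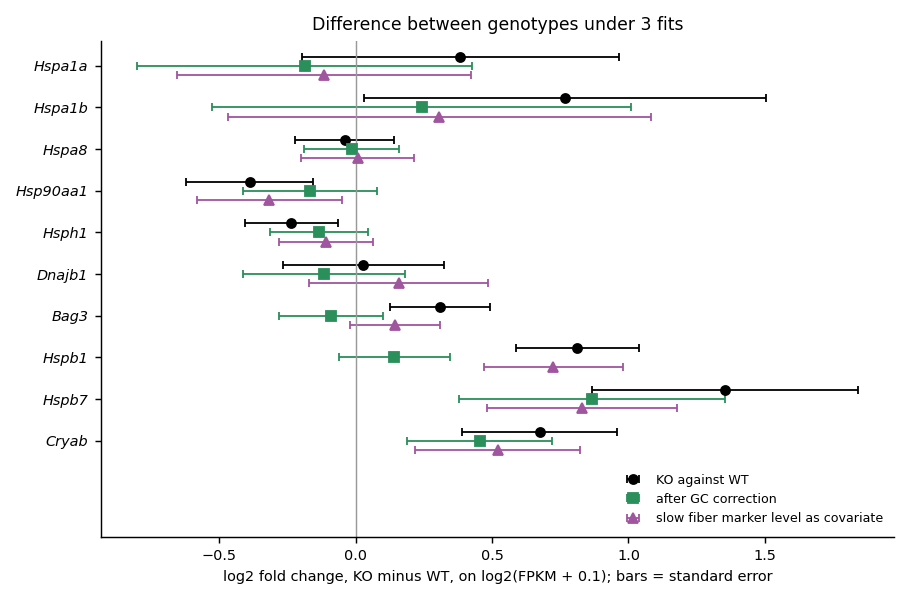
Log2 fold change, KO minus WT, of the 10 genes with its standard error, as fitted to the deposited FPKM (black), after the GC correction (green) and with the slow fiber marker level as a covariate (purple). *Hspb1* goes from 0.81 to 0.14 with the GC correction, while *Hspb7* stays at 0.83 or above in all 3 fits.

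The partners of these chaperones were described by 10 lists of 97 genes, of which 95 were tested. Of the 95 genes, 0 passed an adjusted p under 0.05. At an unadjusted p under 0.05, 18 were higher and 10 lower in KO muscle, where 15.3% and 10.9% of all tested genes were, and the median log2 fold change was -0.0052, with 47 genes above 0 and 48 below. The libraries did not overlap for 20 of the 95 with KO above WT and for 20 with KO below WT (18.3% and 16.2% of all tested genes). Genes named below were mostly those of the lowest unadjusted p in their list, which makes a lack of overlap likely. The partners of chaperone-assisted selective autophagy had a median of 0.24 over 16 genes, 6 of them higher at an unadjusted p under 0.05 and 0 lower, against the same 15.3% and 10.9%. The other small heat shock proteins (4 tested) had a median of 0.27, and the heat shock factor list, which also holds the binding protein *Hsbp1* (4 tested), 0.14. It was 0.059 for the BAG family without *Bag3* (5 tested) and 0.023 for the mitochondrial chaperones (7 tested). The medians were below 0 for the other, mostly cytosolic, HSP70, HSP110 and HSP90 genes (-0.017, 9 tested), the other HSP40 genes (-0.030, 13 tested), the endoplasmic reticulum chaperones (-0.042, 16 tested), the co-chaperones of HSP90 and HSP70 (-0.083, 14 tested) and the cytosolic chaperonin (-0.13, 8 tested). After the GC correction the median was 0.077 for the autophagy partners and 0.066 for the mitochondrial chaperones. It then turned below 0 for the other small heat shock proteins (-0.030), the heat shock factor list (-0.086) and the BAG family (-0.11). It turned above 0 for the other HSP70, HSP110 and HSP90 genes (0.058), the other HSP40 genes (0.067) and the endoplasmic reticulum chaperones (0.020), and was -0.022 for the co-chaperones and -0.023 for the chaperonin.

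**Figure D4:**
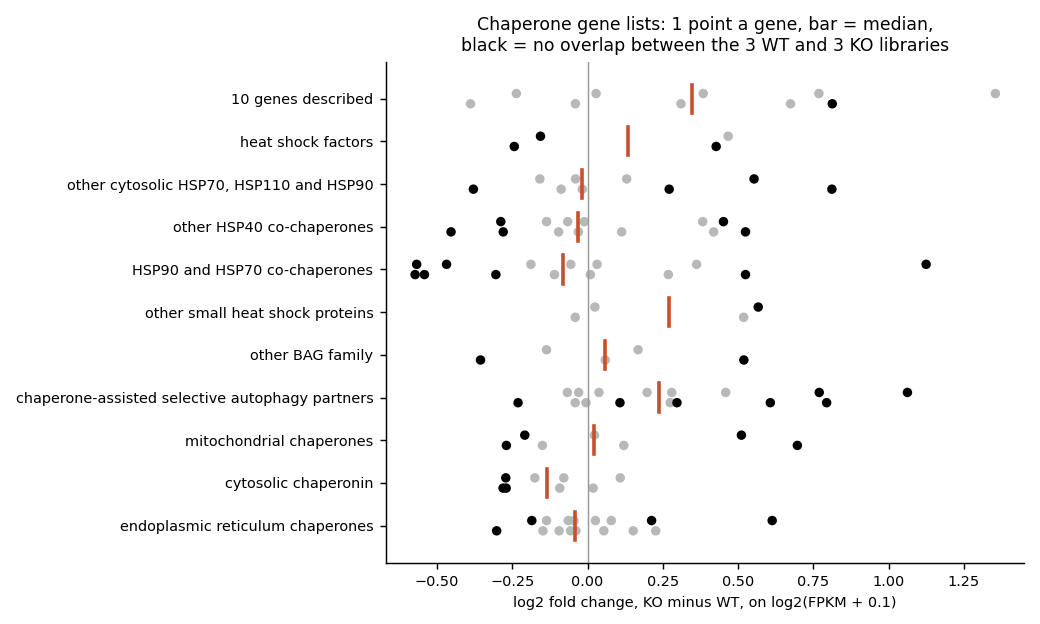
Log2 fold change, KO minus WT, of each gene in the 10 chaperone lists and of the 10 genes described, 1 point per gene, with the median of each list as an orange bar and black points for genes whose WT and KO libraries do not overlap. The 10 genes described have a median of 0.35, the autophagy partners 0.24 and the cytosolic chaperonin -0.13.

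Among the autophagy partners, *Flnc*, the filamin C client that BAG3 and HSPB7 bind, was at 22.03, 32.05 and 26.7 FPKM in WT libraries 1, 7 and 8 and at 43.0, 67.2 and 59.7 FPKM in KO libraries 1, 7 and 8. The groups did not overlap, and the log2 fold change was 1.06 (standard error 0.20, adjusted p = 0.0673). *Stub1*, which encodes CHIP, had a log2 fold change of 0.61 (adjusted p = 0.0760), *Map1lc3a*, an autophagosome protein, 0.79 (adjusted p = 0.0716) and *Vps18*, a part of the tethering complex of lysosomes, 0.77 (adjusted p = 0.146). All were without overlap, where 18.3% of all tested genes had every KO library above every WT library. After the GC correction the log2 fold change was 0.52 for *Flnc* (unadjusted p = 0.0116, limma), 0.022 for *Stub1*, 0.13 for *Map1lc3a* and 0.28 for *Vps18*. *Hspb8*, which holds clients together with BAG3, was at 109.6 to 194.6 FPKM in WT and at 130.5 to 169.0 FPKM in KO libraries (log2 fold change -0.041, adjusted p = 0.925).

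Of the other small heat shock proteins, *Hspb2* was at 26.45 to 37.3 FPKM in WT and 44.9 to 48.75 FPKM in KO libraries, without overlap (log2 fold change 0.57, adjusted p = 0.0805), and went to -0.0074 after the GC correction. *Hspb6*, known as HSP20, was at 291.9, 251.0 and 172.4 FPKM in WT libraries 1, 7 and 8 and at 215.6, 439.2 and 391.9 FPKM in KO libraries 1, 7 and 8 (log2 fold change 0.52, adjusted p = 0.305, and 0.19 after the GC correction). Its libraries stood in the same order as those of *Hspb7* and *Bag3*. *Hspb3* was at 16.6 to 20.1 FPKM in all 6 libraries (log2 fold change 0.024, adjusted p = 0.913), and *Cryaa*, the lens α-crystallin, is listed at 0 in all.

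*Hsf1*, the main heat shock factor, was at 7.34, 9.65 and 11.7 FPKM in WT libraries 1, 7 and 8 and at 12.4, 12.8 and 12.8 FPKM in KO libraries 1, 7 and 8. The groups did not overlap, but by a narrow margin (log2 fold change 0.43, standard error 0.17, adjusted p = 0.173), and the difference was -0.019 after the GC correction. *Hsf4* was at 0.47 and *Hsf2* at -0.24 on the log2 scale (adjusted p = 0.245 and 0.349), and both turned with the GC correction, to -0.20 and 0.16. Among HSP90 partners, *Cdc37*, the kinase adaptor, had a log2 fold change of 0.52 (adjusted p = 0.0750), *Ptges3*, which encodes p23, -0.57 (adjusted p = 0.0750), *Cacybp* -0.54 (adjusted p = 0.0750) and the cyclophilin *Ppid* -0.57 (adjusted p = 0.0667). Each was without overlap, where 18.3% of all tested genes were so with KO above WT and 16.2% with KO below WT. The GC correction left 0.44 for *Cdc37*, -0.28 for *Ptges3*, -0.24 for *Cacybp* and -0.26 for *Ppid*. In the BAG family, *Bag6* had a log2 fold change of 0.52 (adjusted p = 0.0751) without overlap, which turned to -0.028 with the GC correction, and *Bag4* -0.36 (adjusted p = 0.296), which went to -0.11.

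Of the other lists, the mitochondrial proteases *Clpp* (log2 fold change 0.70, adjusted p = 0.0700) and *Lonp1* (0.51, adjusted p = 0.0785) had positive values and the mitochondrial chaperonin genes *Hspd1* (-0.27, adjusted p = 0.194) and *Hspe1* (-0.21, adjusted p = 0.272) negative ones, and after the GC correction these were 0.17, 0.066, -0.22 and -0.14. Of the chaperonin subunits, *Cct8* was at -0.27 (adjusted p = 0.158) and *Cct4* at -0.27 (adjusted p = 0.173), and they went to -0.019 and -0.13 with the GC correction. In the endoplasmic reticulum list, the stress factor *Ddit3* had a log2 fold change of 0.61 (adjusted p = 0.0750) and *Dnajb9* -0.30 (adjusted p = 0.165), and the corrected values were 0.52 and 0.013. Of HSP70 and HSP40 relatives, *Hspa12b* was at 0.81 (adjusted p = 0.0880), *Hspa13* at -0.38 (adjusted p = 0.162), *Dnajb12* at 0.52 (adjusted p = 0.155) and *Dnajb14* at -0.45 (adjusted p = 0.158), and with the GC correction they were at 0.28, -0.085, 0.20 and -0.17.

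The direction of these partners split by GC content, and the same split was not counted for all tested genes. Of the 48 genes at the median of 50.49% GC or above, 39 had a log2 fold change above 0, 18 of them at an unadjusted p under 0.05, and 0 of the others reached that p. Of the 47 genes below it, 39 had a log2 fold change below 0, 10 of them at an unadjusted p under 0.05, and 0 of the others reached that p. After the GC correction, 6 of the 95 genes were higher and 4 lower at an unadjusted p under 0.05, where 5.33% and 5.4% of all genes with a GC value were. Before it, 15.3% and 10.9% of all tested genes were, so the fall was not particular to these partners. Of the 97 genes, 82 had a promoter window, and 19 of these held the 2-unit heat shock letters in at least 1 window, against 16.97% of all genes with a window. The 3-unit letters were in 4 of the 82, *Hspd1*, *Hspe1*, *Chordc1* and *Dnajb6*, against 0.6623% of all genes with a window. *Hspd1* and *Hspe1* overlap at their starts on opposite strands, and whether their matches are the same site was not examined.

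**Figure D5:**
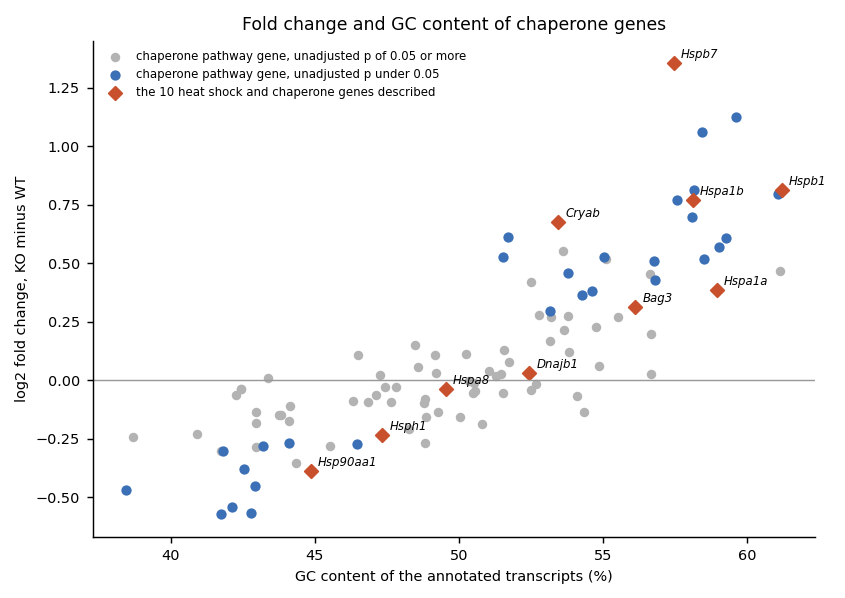
Log2 fold change, KO minus WT, against the GC content of the annotated transcripts for the tested chaperone pathway genes (circles, blue where the unadjusted p is under 0.05) and the 10 genes described (orange diamonds). Genes with a GC content below 50.49% lie mostly below 0 and those above it mostly above 0, from *Hsp90aa1* at 44.86% to *Hspb1* at 61.21%.

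Profiles over the 6 libraries were compared by the root mean square difference of centred log2(FPKM + 0.1) values, over 12091 tested genes above 0 in every library. The nearest to *Hspa1b* was *Hspa1a* (0.385), with which it shares sequence, and then *Atf3* (0.413), *Zfp771* (0.439), *Chka* (0.442) and *Fhl2* (0.446), where the median of all genes was 1.02. The nearest to *Cryab* were *Midn* (0.106), *Rfx1* (0.129), *Hspb1* (0.1315), *Agfg2* (0.152) and *Arid3b* (0.153), where the median was 0.546. *Hspb7* was at 0.539 from *Cryab*, close to the median, although both were highest in KO replicates 7 and 8. The distance also grows with the size of a gene's differences, so genes highest in the same libraries can lie far apart. These distances rest on 6 libraries and the same scaling, and are a description.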

How the data were processed

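Total RNA of GAS muscles was made into libraries with a TruSeq Stranded mRNA kit, per the labels, and read as pairs of 150 bases. The authors used TopHat for mapping to GRCm38 and Cufflinks for quantification, and deposited the FPKM of 37979 genes in 6 libraries. Tool versions and annotation are not given in the sources used here. FPKM hold no counts, so the depth was estimated from low values of genes with 1 annotated transcript of 1500 to 6000 bases, of which 90.63% to 95.05% were whole fragments within 0.15. Libraries had at most 1 value above 0 in common, so each was a replicate.

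Genotypes were compared with limma 3.58.1 (R 4.3.3), fitted to log2(FPKM + 0.1) with a variance trend for genes averaging 0.5 FPKM or more, and p-values were adjusted by Benjamini-Hochberg over all 12334 genes. The study's own test with Cufflinks needs reads, so limma took its place. Single values were tested by exact permutation. GC content came from GENCODE vM21 transcripts (GRCm38) and was known for 97.17% of tested genes. The correction subtracted a loess curve of span 0.3. The fit was tested on simulated data with independent noise, which covered only genes above 0 in every library. The 10 genes and the lists were chosen with earlier results of these data known. Named genes were the 10 genes, *Kcnab2*, *Hsf1*, *Bag1*, up to 4 genes per list with the lowest unadjusted p averaging 1 FPKM or more, and the 5 nearest profiles. Others (*Cryaa*, *Chordc1*, *Dnajb6*, single marker genes and genes sharing sequence) were chosen after their values were seen. Alternatives covered pseudocount, filter, scaling, variance model, array weights, replicate block, GC content, genes listed at 0 and each library left out. P-values measure the spread between 3 mice per genotype. Figures were drawn with matplotlib 3.10.9.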

Additional observations from a re-analysis of the deposited data

How the results depend on the processing

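With each library left out, 0 of the 10 genes and 0 of the 95 listed partners passed an adjusted p under 0.05. Of 199 values tried for the 10 genes, 178 kept direction and side of the threshold, 17 changed sign and 4 passed it, all 4 with array weights. *Hspa1a* reversed to -0.19 with the GC correction, with and without the replicate block, and to -0.12 with the slow fiber covariate. *Hspa8* reversed to 0.0054 with array weights and 0.0072 with the slow fiber covariate, and *Hsp90aa1* to 0.056 with array weights. *Dnajb1* reversed to -0.011 with upper-quartile scaling and to -0.12 with the GC correction, with and without the replicate block, and *Bag3* to -0.090 with the GC correction in both forms. With a library left out, *Hspa1a* ranged from -0.0072 to 0.87, *Hspa8* from -0.19 to 0.086 and *Dnajb1* from -0.20 to 0.30. The *Bag3* to *Bag1* difference ranged from 0.28 to 0.58.

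The count of all genes called, 40, went to 11 with a pseudocount of 1, 20 without the filter, 19 without the variance trend, 3147 with array weights, 14 with the GC correction, 1 without the genes that any library lists at 0, and 25 with the slow fiber covariate. With a library left out it ranged from 11 (without KO replicate 1) to 38 (without WT replicate 8). The cause was not tested. Same-numbered libraries had correlations of deviations of -0.025, -0.080 and 0.034, so no pairing by number was seen over all genes. The labels do not say what the numbers mark, and these values cannot show whether same-numbered mice shared a litter or batch. The replicate block gave 13 calls, and 12 with the GC correction, and changed no call of the 10 genes. The limits are depth, 6 to 57 estimated fragments for the HSP70 pair, and 3 mice per genotype.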
